A study of Homo sapiens with 12 samples.

Results

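NCI-H2009 is an established human lung adenocarcinoma cell line. Its course from attached culture through 1 day and 7 days without attachment was followed in 3 RNA-sequencing libraries, 1 per state, chosen by their labels out of the 12 libraries of the series. In the attached state the cells grew in ordinary culture with no treatment. In the other states they had been trypsinized and put on plates whose ultra-low attachment surface keeps cells from adhering, and RNA was taken at day 1 or at day 7. The remaining 9 libraries hold the same 3 states of LC-2/ad, NCI-H2228 and HCC4006, also lung adenocarcinoma lines and also with 1 library per state, and known for a RET fusion, an ALK fusion and an EGFR deletion. Values of these lines are given in that order where no line is named. All the lines were kept in RPMI-1640 with serum, penicillin and streptomycin. The attached library carries no time, so loss of attachment, trypsin, replating and days in culture cannot be told apart. No state of NCI-H2009 has a second library, so changes within the line carry no test, and the line stands for itself, not for a class of tumours.

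Epithelial cells read attachment through integrins and the actin skeleton. When contact is lost, the coactivators YAP and TAZ leave the nucleus, and caveolae, small pits of the plasma membrane that need caveolin, respond to the change in membrane tension. Cells without a substrate that survive usually gather in clusters, where the outer and inner cells meet different oxygen and nutrient supply. In bulk RNA a change in the number of cells of a kind and a change of RNA per cell cannot be told apart.

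The libraries carried the transcripts of an adenocarcinoma line. EPCAM, an epithelial adhesion protein, stood at 1268 TPM in attached cells, 1266 at day 1 and 1634 at day 7. TPM is a transcript share scaled by length and library total, taken as the authors listed it. CDH1, which codes for E-cadherin, stood at 260, 325 and 685 TPM. NKX2-1, the lineage factor of the distal lung, stood at 50.6, 72.9 and 107 TPM. The surfactant genes SFTPC and SFTPD, which define alveolar type 2 cells, were listed at 0 in all 3 libraries. Of 14 leukocyte markers 10 stayed below 1 TPM in the 3 libraries, and PTPRC, CD2, MS4A1, FCGR3A, TYROBP and AIF1 were listed at 0 in each. The summed leukocyte list was nevertheless 7.02, 64.6 and 35.4 TPM, carried by CD68, a lysosomal glycoprotein, at 2.65, 59.3 and 29.4 TPM. Of 8 endothelial markers 7 stayed below 1 TPM, ERG and EMCN at 0, and of 10 neuroendocrine markers 8 did, with CHGA at 0. Of 10 fibroblast and stromal markers 7 stayed below 1 TPM, THY1 at 0, and their sum went from 7.48 to 7.87 and 13.3 TPM. The neuroendocrine sum went from 199 to 205 and 22.3 TPM, nearly all of it UCHL1, and the endothelial sum from 0.602 to 2.01 and 13.2 TPM through KDR. The part of other cells in the results was not tested.

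The day 1 library of NCI-H2009 stood apart from the other 11 in a way that bears on every value that uses it. Relative to the attached library, genes in the shortest of 5 equal classes, up to 2133 bases, had a median log2 change of 0.39, and those in the longest, from 6003 bases, of -0.42. Genes in the lowest class of GC content, up to 42.1%, had a median of -0.82, and those in the highest, from 58.8%, of 0.37. Over 14240 protein-coding genes Spearman's rho with the day 1 change was -0.26 for length and 0.36 for GC content, against values between -0.13 and 0.10 in the other lines. The day 7 library of NCI-H2009 was nearly free of the pattern against attached, with rho 0.05 for length and 0.07 for GC. The cause was not tested. Day 7 against attached is therefore described first, and day 1 log2 values and counts over lists are as measured unless called corrected, which means that a smooth of length and GC was subtracted from each library. TPM values are always as measured. The TPM change and the log2 CPM change of a gene can disagree, and not by a constant amount. From attached to day 1 SMC4 went from 128 to 0.670 TPM, a larger fall than its log2 CPM difference of -5.73. APC went from 8.09 to 1.83 TPM, a smaller fall than its log2 CPM difference of -4.42. The cause of this disagreement was not tested.

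**Figure D1:**
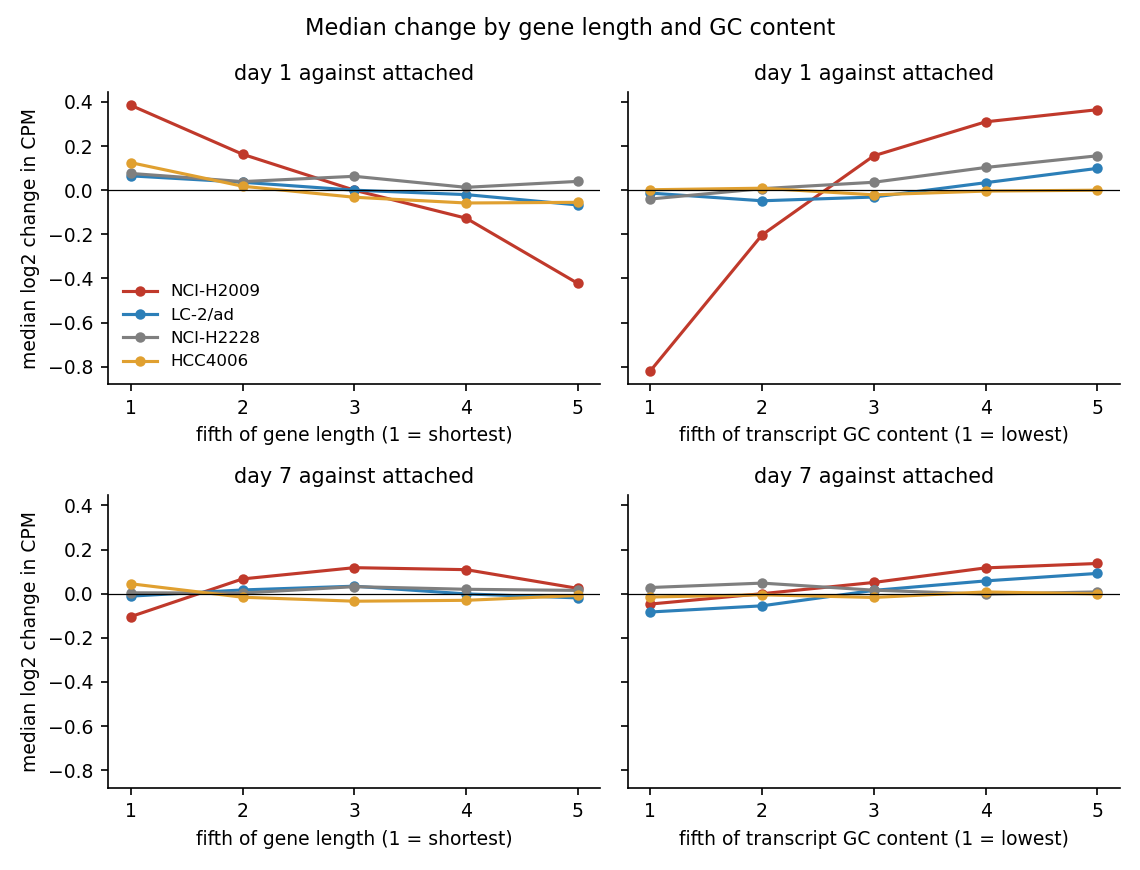
Median log2 change in CPM (y axis) of genes in 5 equal classes of length (left) and of transcript GC content (right), for day 1 (top) and day 7 (bottom) against attached, 1 line per cell line. At day 1 the NCI-H2009 medians run from 0.39 to -0.42 over length and from -0.82 to 0.37 over GC, while those of the other lines stay near 0; at day 7 the 4 lines lie close together.

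Differences between states were larger within NCI-H2009 than within any of the other 3 lines at each step. Of 12244 protein-coding genes with a mean of at least 1 TPM in the line, 1927 (15.7%) were at least 2-fold higher at day 7 than attached and 1455 (11.9%) at least 2-fold lower. The corresponding counts were 710 and 523 in LC-2/ad, 550 and 905 in NCI-H2228, and 794 and 529 in HCC4006. The standard deviation of the log2 changes over genes was 1.24 in NCI-H2009 and 0.74 to 0.75 in the others. At day 1, 2124 genes (17.3%) were at least 2-fold higher and 2356 (19.2%) lower, or 2335 and 1615 after correction. Between day 1 and day 7, 2470 genes (20.2%) stood at least 2-fold higher and 1624 (13.3%) lower, or 1866 and 1510 after correction. These 3 comparisons share libraries in pairs, so their counts are not independent. The split of higher against lower genes follows the scale: on log2(TPM + 1) the median of all genes moved to -0.28 at day 1 and 0.28 at day 7, and 74.3% of the genes past 2-fold at day 7 were higher, against 57.0% on log2 CPM.

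**Figure D2:**
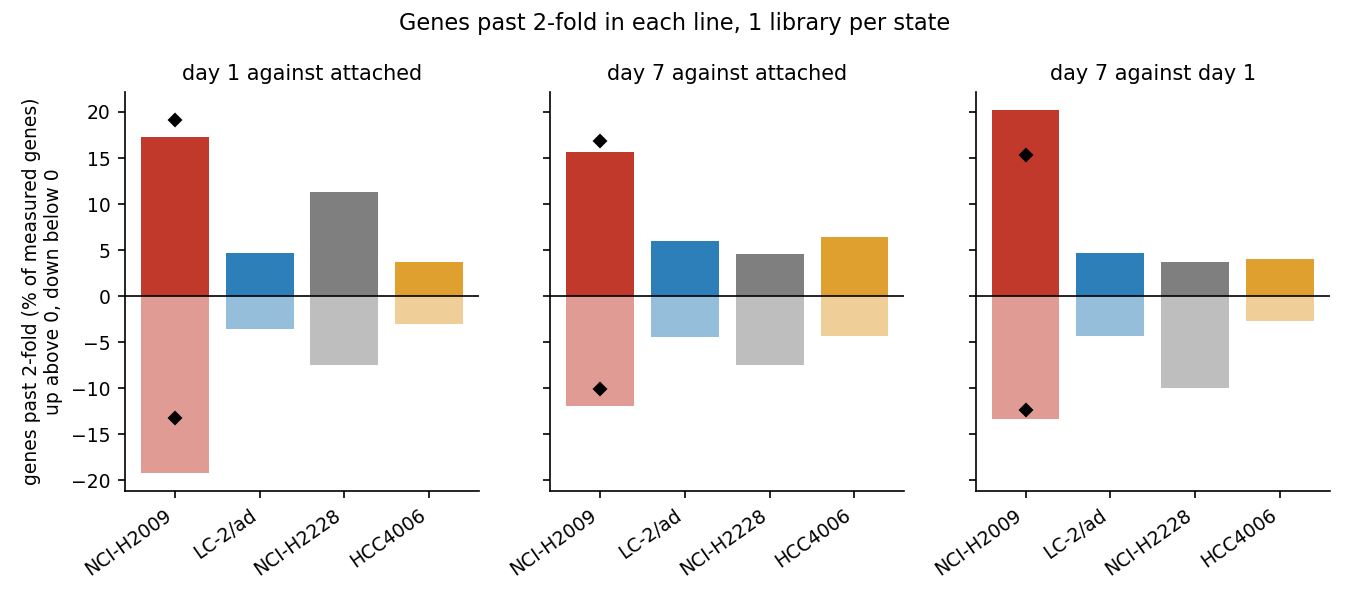
Share of measured protein-coding genes at least 2-fold higher (above 0) or lower (below 0) in each line, for the 3 comparisons; diamonds give NCI-H2009 after the length and GC correction. The NCI-H2009 bars, 15.7% and 11.9% at day 7, exceed those of the other 3 lines in every panel, also after correction.

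The 3 genes that mark the line's course were far higher at day 7 than attached. SLC34A2, the phosphate transporter of alveolar type 2 cells (chromosome 4, 25648011 to 25678748, plus strand, GRCh38), stood at 0.483 TPM attached, 20.0 at day 1 and 372 at day 7, a log2 CPM difference of 9.52 over the course. CEACAM5, the carcinoembryonic antigen (chromosome 19, 41708585 to 41730433, plus strand), went from 3.52 to 145 and 1684 TPM, a difference of 8.38 by day 7. HOPX, a homeodomain-only cofactor of alveolar cells (chromosome 4, 56647988 to 56681899, minus strand), was at 0.501, 3.02 and 83.9 TPM, a difference of 6.15. Each of the 3 was lowest in the attached library and highest at day 7.

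The other lines shared these 3 genes unequally. CEACAM5 was higher at day 7 in each: LC-2/ad went from 2.41 to 192 TPM, NCI-H2228 from 20.1 to 49.9 and HCC4006 from 30.4 to 290. SLC34A2 was higher in LC-2/ad, 0.757 against 25.6 TPM, and in HCC4006, 655 against 2290, but in NCI-H2228 it peaked at day 1 with 2677 TPM and returned to 395 from 576 attached. HOPX was higher in LC-2/ad, 4.61 against 10.3 TPM, and in HCC4006, 43.4 against 81.9, log2 differences of 1.30 and 1.00. It ended lower in NCI-H2228, 1.32 against 8.54 TPM, a log2 difference of -2.77. The difference between NCI-H2009 and the mean of the other lines was 6.76 ± 2.52 (SE) for SLC34A2 and 6.05 ± 1.57 for HOPX at day 7, with edgeR adjusted p = 0.384 and 0.286, so neither passed.

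**Figure D3:**
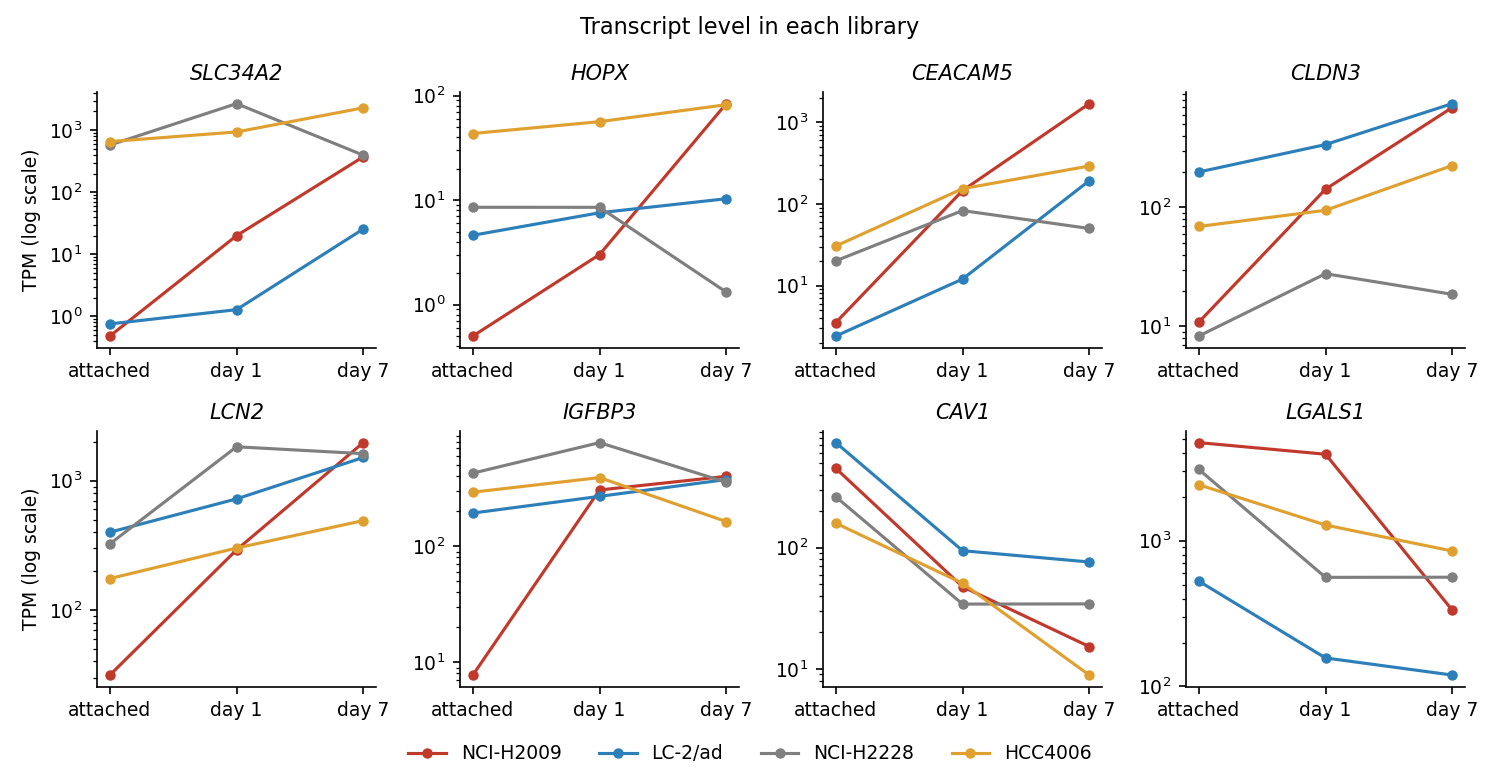
Level of 8 genes in TPM (y axis, log scale) in each of the 12 libraries, by state (x axis), 1 colour per line. In NCI-H2009 the first 6 genes are lowest attached, and CAV1 and LGALS1 end at 15.3 and 334 TPM, the lowest of their course.

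Several of the genes highest at day 7 were at or near 0 in the attached library. ST6GALNAC1, the sialyltransferase that makes the sialyl-Tn antigen, was listed at 0, 4.41 and 50.8 TPM, which makes it at least 620-fold higher at day 7 against a floor of 3 counts in the attached library. KDR, a receptor for vascular endothelial growth factor, was at 0, 0.996 and 11.8 TPM, at least 430-fold higher. NDRG2, a stress-linked hydrolase-fold protein, went from 0 to 0.610 and 33.0 TPM, at least 315-fold higher. For VTCN1, an inhibitory ligand of T cells, 1 count attached stood against 2843 at day 7, a ratio of 2580 with an exact 95% interval from 463 to 102000, which covers counting error only. In TPM it stood at 0.136, 7.93 and 47.9, a smaller ratio that lies below this interval. TMPRSS2, a serine protease of airway epithelium, stood at 0.045, 1.20 and 32.8 TPM. In HCC4006 and LC-2/ad VTCN1 and NDRG2 were already at 11.1 to 35.6 TPM when attached, but in NCI-H2228 at 1.03 and 1.85 TPM. Day 7 log2 differences in the other lines were 1.71, 0.17 and 2.91 for ST6GALNAC1 and 4.86, -2.755 and 2.59 for KDR. For TMPRSS2 they were 4.30, 1.03 and 0.66, for VTCN1 1.39, -0.67 and 0.72, and for NDRG2 1.13, -0.13 and 1.41.

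Genes of specialised airway cells came next. Of 16 listed secretory and goblet cell genes 8 reached the mean of 1 TPM, and these 8 were at least 2-fold higher at day 7, with a median log2 change of 3.49 against 0.04 for all measured genes. PIGR and AGR3 reached that mean only through the day 7 library, so they had to be higher there, and over all 16 listed genes the median was 2.53. PIGR, the receptor that carries immunoglobulin across epithelia, was at 0.008, 0.362 and 16.8 TPM, 1 count attached against 1871 at day 7. AGR3, a disulfide isomerase, was listed at 0 in the attached and day 1 libraries and at 16.6 TPM at day 7, at least 48.4-fold higher. WFDC2 went from 249 to 2581 and 2262 TPM. The list's defining airway secretory genes did not share this: SCGB1A1 and BPIFB1 were listed at 0 in the 3 libraries, and MUC5AC did not exceed 0.045 TPM. The list's medians in the other lines were 1.28, 0.53 and 2.49.

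Of 12 listed genes of ciliated cells 8 were measured and 7 of these were at least 2-fold higher at day 7. FOXJ1, PIFO, RSPH1 and TEKT1 were measured only through the day 7 library and had to be higher there, and of the other 4 measured genes 3 were past 2-fold. The median was 3.71 over all 12 and 4.0 over the measured members, against 0.94, 1.04 and 1.20 in the other lines. FOXJ1, the master regulator of motile cilia, stood at 0.015, 0.178 and 32.7 TPM, 1 count attached against 2027 at day 7. TPPP3, a tubulin polymerization-promoting protein, was at 2.41, 1.93 and 77.2 TPM, and DNAH5, a heavy chain of the axonemal dynein arm, at 4.29, 1.56 and 20.6 TPM. The high level of these 3 genes was seen only at day 7. FOXJ1 did not exceed 5.19 TPM in any library of the other lines. CDC20B, which lies in the gene cluster of multiciliated cells, was listed at 0, 0.164 and 10.1 TPM, at least 179-fold higher at day 7, and did not exceed 0.200 TPM in another line.

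The CEACAM family had 4 measured members of 8 listed, each at least 2-fold higher at day 7. CEACAM6 stood at 48.7, 363 and 1825 TPM, CEACAM1 at 6.73, 29.9 and 106, and CEACAM19 at 1.43, 0.894 and 9.37. The median of the 4 was 4.06, beside 3.42, 0.12 and 1.16 in the other lines.

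Complement and acute phase genes had the highest median at day 7 among the lists with at least 4 measured members, 5.30 over 9 measured members of 14 listed, 8 of them past 2-fold higher. C3 and SAA1 were measured only through the day 7 library, and over all 14 the median was 2.52. Taken over all listed genes the list did not rank first: the ciliated median was 3.71, the CEACAM median 2.82 and the secretory median 2.53. LCN2, the siderophore-binding lipocalin, went from 31.4 to 292 and 1972 TPM. CFB, complement factor B, was at 1.36, 11.1 and 134 TPM, and was past 2-fold higher in the other lines too, at log2 differences of 1.26, 1.43 and 4.13. C3, the central complement component, stood at 0.105, 1.70 and 6.71 TPM. SAA1 and SAA2, serum amyloid genes that are near-identical copies and hence uncertain, reached 49.8 and 20.7 TPM at day 7 from below 0.5 attached. The medians of this list in the other lines were 0.93, 0.33 and 2.39.

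Antigen presentation was higher by day 1 already. Of 12 genes of MHC class I presentation, 11 were past 2-fold higher at day 1 (10 corrected) and 8 at day 7, with day 7 medians of 1.72 in NCI-H2009 and 0.64, 0.17 and 0.94 in the others. HLA-B stood at 909, 3133 and 8498 TPM. HLA-E went from 51.3 to 216 and 469 TPM and HLA-F from 20.4 to 93.0 and 183 TPM. TAP2, a subunit of the peptide transporter, went the other way, 10.4, 8.62 and 5.67 TPM. Of 10 listed genes of class II presentation 5 were measured, CIITA and HLA-DRA of them only through the day 7 library. These 5 were past 2-fold higher at day 7, among them HLA-DMA at 2.23, 36.6 and 27.9 TPM and CD74, the invariant chain, at 46.7, 185 and 283 TPM. The class II median at day 7 was 2.32, beside 0.94, 0.17 and 3.56 in the other lines.

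Interferon-stimulated genes were split. Of 16 listed members 10 were past 2-fold higher at day 7 and none past 2-fold lower, with a median of 1.33 against 0.26, -0.42 and 0.34 in the other lines. IFI44L and OAS2 were measured only through the day 7 library and had to be higher there. Of the other 14 members 8 were past 2-fold higher. Interferons act through receptors that activate a transcription factor complex, which binds paired copies of a short motif in the promoters of these genes. The promoters of the 4 members with the largest day 7 change that the RefSeq table holds are shown, from 250 bases before to 50 after the annotated start (GRCh38.p14) to show how the motif lies in them. Capitals mark matches to TTTCNNTTTC or, on the other strand, GAAANNGAAA. The IFI27 window is chr14:94110486-94110785 on the plus strand, the first of 2 listed starts, and MX1 is chr21:41420308-41420607, plus, the first of 3. OAS1 is chr12:112906712-112907011, plus, and IFI44L is chr1:78620198-78620497, plus.
IFI27: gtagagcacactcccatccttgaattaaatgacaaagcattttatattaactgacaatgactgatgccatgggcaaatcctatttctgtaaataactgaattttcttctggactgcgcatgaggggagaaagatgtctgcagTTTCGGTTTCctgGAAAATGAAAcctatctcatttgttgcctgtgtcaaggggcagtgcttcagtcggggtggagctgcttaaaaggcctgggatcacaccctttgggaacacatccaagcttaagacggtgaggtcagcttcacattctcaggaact
MX1: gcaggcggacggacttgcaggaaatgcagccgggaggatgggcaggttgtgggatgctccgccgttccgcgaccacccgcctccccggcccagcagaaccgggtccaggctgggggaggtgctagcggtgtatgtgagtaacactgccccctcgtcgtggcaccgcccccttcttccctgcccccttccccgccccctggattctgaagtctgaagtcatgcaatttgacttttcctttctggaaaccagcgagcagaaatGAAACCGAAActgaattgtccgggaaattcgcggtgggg
OAS1: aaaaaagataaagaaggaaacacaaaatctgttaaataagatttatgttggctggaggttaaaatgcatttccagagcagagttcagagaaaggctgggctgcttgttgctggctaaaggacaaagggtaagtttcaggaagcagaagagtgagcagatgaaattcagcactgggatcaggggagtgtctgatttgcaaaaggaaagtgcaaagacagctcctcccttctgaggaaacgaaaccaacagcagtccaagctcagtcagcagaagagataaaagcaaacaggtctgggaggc
IFI44L: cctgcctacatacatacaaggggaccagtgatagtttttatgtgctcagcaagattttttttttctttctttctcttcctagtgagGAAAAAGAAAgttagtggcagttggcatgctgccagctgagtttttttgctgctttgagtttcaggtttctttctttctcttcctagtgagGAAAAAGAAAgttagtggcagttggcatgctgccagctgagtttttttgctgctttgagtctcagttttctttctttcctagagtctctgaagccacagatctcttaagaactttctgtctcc
A match was found in 13 of the 16 listed promoters of the list's genes (81.2%), which belong to 11 genes, and in 1255 of all 35116 promoters of the table (3.57%). OAS1 and IRF9 had none in these windows. The search allowed a spacer of 2 bases only. The OAS1 window holds a pair of GAAA copies with a single base between them, which the search could not match. A match is a description of the letters and not a site in use.

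IFI27, a mitochondrial interferon-induced protein, stood at 2.48, 30.8 and 78.8 TPM, a log2 difference of 4.61 at day 7. MX1, the antiviral GTPase, stood at 1.20, 10.2 and 30.2 TPM, a difference of 4.21. OAS1, whose oligoadenylate product activates RNase L, was at 6.14, 43.7 and 127 TPM, a difference of 3.98 against 0.72, 0.17 and 0.37 in the other lines. IFI44L was at 1.35, 0.296 and 6.02 TPM, so its day 7 value stood above both earlier libraries. ISG15, the ubiquitin-like modifier, did not follow, at 772, 965 and 476 TPM, nor did IFIT1 at 8.14, 4.48 and 6.20 TPM or IFIT3 at 14.8, 7.54 and 16.4 TPM. The promoters of these 3 hold the match too.

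Of 15 listed NF-kappaB targets and cytokines 13 were measured, BIRC3, CXCL1 and CXCL3 only through the day 7 library, and 10 of the 13 were past 2-fold higher at day 7, with a median of 2.74 against 1.30, -0.49 and 0.31 in the other lines. CXCL1, a neutrophil-attracting chemokine, was listed at 0, 1.25 and 22.6 TPM, at least 140-fold higher at day 7. CXCL8 stood at 0.875, 1.81 and 24.1 TPM, and CCL20 at 0, 3.37 and 10.7. NFKBIA, the inhibitor that NF-kappaB itself induces, went from 87.5 to 279 and 425 TPM. ICAM1 peaked at day 1, 6.81, 98.8 and 66.1 TPM.

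Lysosomal genes and cell junction genes were higher too. Of 18 measured lysosome and autophagy genes 15 were past 2-fold higher at day 1, also corrected, and 11 at day 7, with a day 7 median of 1.25 against 0.66, 0.51 and 0.05. GAA, acid alpha-glucosidase, stood at 30.7, 85.1 and 187 TPM and CTSB, cathepsin B, at 399, 1093 and 1719 TPM. Of 18 epithelial junction genes 7 were past 2-fold higher at day 7. CLDN1 was measured only through the day 7 library, and of the other 17 genes 6 were past 2-fold higher. CLDN3 stood at 10.8, 142 and 691 TPM, TJP3 at 20.3, 164 and 257, and OCLN at 8.13, 14.8 and 66.9. The epithelial transcription factor ELF3 stood at 67.5, 533 and 964 TPM, and SOX2 at 5.57, 11.3 and 40.1 TPM, while GATA6 was lower, at 7.57, 3.35 and 1.71 TPM.

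Several caveolar transcripts were far below their attached level at both days. CAV1, the main caveolin (chromosome 7, 116525001 to 116561184, plus strand), stood at 452, 47.7 and 15.3 TPM, a log2 difference of -5.31, and was lower in each other line by day 7, at -3.18, -2.83 and -4.12. Of 7 caveolar genes 4 were past 2-fold lower, with CAVIN1 at 134, 21.5 and 17.9 TPM and CAV2 at 143, 30.7 and 23.5. The list's median was -2.49 against -1.24, -1.20 and -1.02. FLNA, the actin crosslinker filamin A, stood at 194, 87.8 and 37.7 TPM. Of 17 actin and SRF genes 5 were past 2-fold lower, and of 18 integrin and focal adhesion genes 5, where 11.9% of all measured genes were. Among the latter, FERMT1, which activates integrins, stood at 34.5, 3.87 and 11.4 TPM.

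Of 19 measured YAP and TAZ targets, 13 were past 2-fold lower at day 7 and 1, NUAK2, past 2-fold higher. AXL, a receptor tyrosine kinase, stood at 31.7, 5.69 and 3.37 TPM, CCN1 at 113, 30.9 and 28.8, and NT5E, which makes adenosine, at 79.0, 18.1 and 13.4. The median of the list was -1.85 against -0.41, -1.25 and -0.89 in the other lines. TGF-beta targets had a median of -1.48 with 7 of 12 past 2-fold lower: TGFBI, an extracellular adhesion protein, stood at 1113, 537 and 219 TPM and PMEPA1 at 36.4, 9.50 and 5.27.

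LGALS1, which codes for galectin-1, kept 3922 TPM at day 1 against 4711 attached and then stood at 334 TPM at day 7, a log2 difference of -4.08. GJA1, a gap junction connexin, followed the same order with 23.7, 16.3 and 1.15 TPM. The actin crosslinker FLNC, at 26.0, 28.8 and 2.20 TPM, was likewise low only at day 7 but highest at day 1. MMP2, a gelatinase, stood at 18.0, 6.96 and 1.15 TPM, ITGA4 at 13.1, 1.47 and 0.725, BARX1, a homeobox factor, at 33.4, 8.62 and 2.24, and GAL, the neuropeptide galanin, at 107, 25.3 and 7.11. CGB5 and CGB8, copies of the chorionic gonadotropin beta gene whose reads cannot be well separated, were at 83.0 and 31.8 TPM attached and at 1.33 and 0.763 at day 7.

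Growth and metabolism transcripts were lower at day 7, some of them only then. Of 20 genes of G2/M and mitosis 20 were past 2-fold lower, with a median of -2.04, beside -0.97, -2.63 and -1.16 in the other lines. AURKB, a mitotic kinase, stood at 184, 96.0 and 46.8 TPM and UBE2C, which loads ubiquitin for the anaphase complex, at 1352, 1195 and 336. Of 18 DNA replication genes 5 were past 2-fold lower, where 11.9% of all measured genes were, with TYMS, thymidylate synthase, at 187, 137 and 74.4 TPM.

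Of 18 ribosomal protein genes 17 were past 2-fold lower at day 7, RPL3 being the exception at -0.73. The median was -1.41, against -0.55, 0.06 and 0.13 in the other lines, and 0.38 at day 1 in NCI-H2009 (0.17 corrected). It was -1.14 on log2(TPM + 1), where the median gene stood at 0.28, so the direction held on that scale. RPS18 stood at 2211, 3193 and 885 TPM. These genes have many processed copies in the genome, so single values are uncertain.

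Of 17 genes of glycolysis 9 were past 2-fold lower at day 7 and 4 past 2-fold higher at day 1 (corrected, 4 higher and 1 lower). LDHA, lactate dehydrogenase A, stood at 2679, 1662 and 693 TPM, GAPDH at 7076, 9412 and 2666, and ENO1 at 3876, 2365 and 1558. The day 7 median was -1.03 against -0.23, -0.32 and -0.25. NRF2 targets, the antioxidant genes, had a median of -1.48 against 0.42, 0.22 and -0.56, with 8 of 13 past 2-fold lower: HMOX1, heme oxygenase, stood at 143, 182 and 38 TPM and NQO1 at 1426, 965 and 592. Of 19 cholesterol synthesis genes 12 were past 2-fold lower, led by SQLE, squalene epoxidase, at 97.6, 67.2 and 32.6 TPM, and of 11 heat shock genes 7, led by HSPD1 at 1078, 258 and 403 TPM. UCHL1, a deubiquitinase, stood at 199, 202 and 22.1 TPM.

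**Figure D4:**
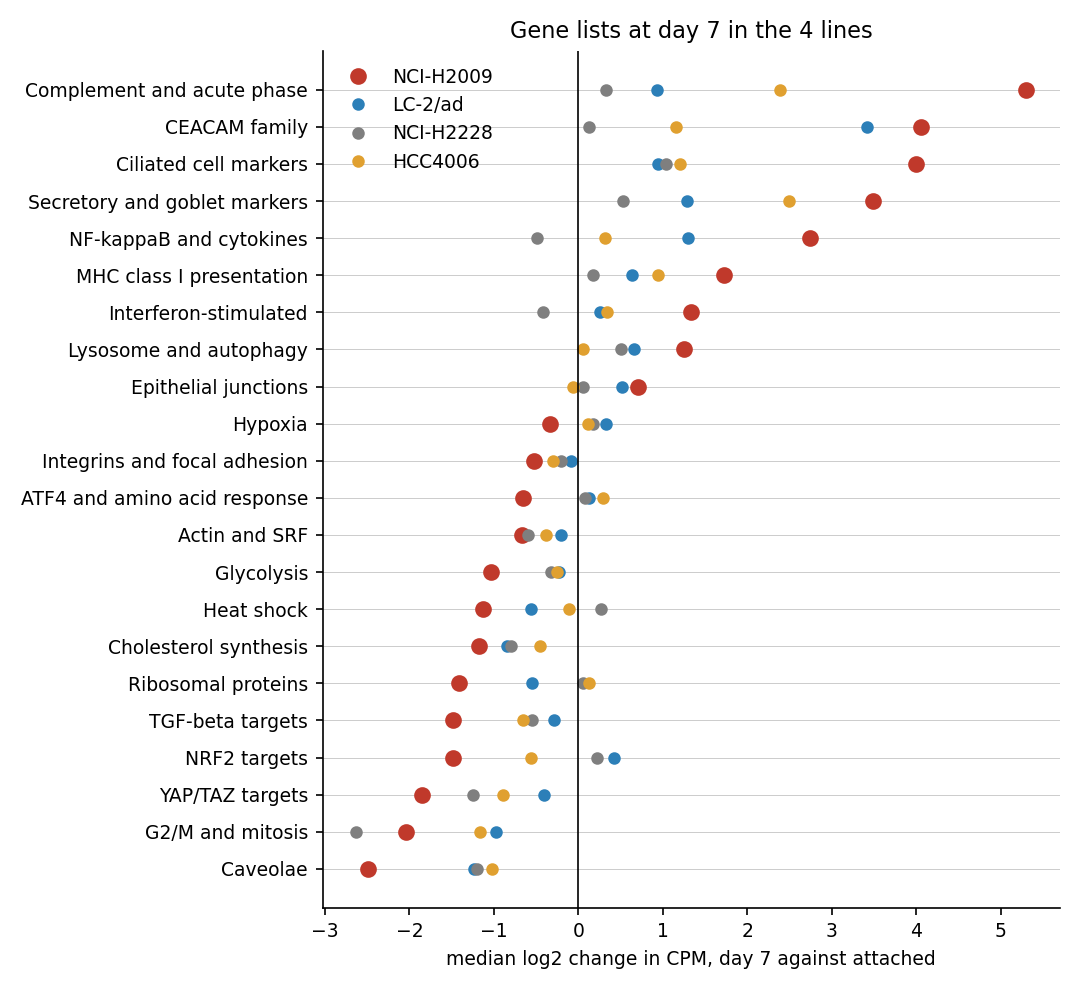
Median log2 change in CPM from attached to day 7 (x axis) of 22 gene lists, 1 point per line. NCI-H2009 runs from 5.30 for complement and acute phase to -2.49 for caveolae. NCI-H2228 lies beyond it for G2/M genes at -2.63.

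Some of the genes with the largest day 1 values were lower again at day 7, though still above attached. ADM, adrenomedullin, stood at 0.285, 19.8 and 2.75 TPM, a day 1 log2 difference of 6.20, or 5.73 corrected. DEPP1, a FOXO-induced regulator of autophagy, stood at 5.02, 328 and 77.2 TPM, with day 1 differences of 6.38, or 5.96 corrected. Of 17 measured hypoxia genes 12 were past 2-fold higher at day 1 (11 corrected) and 3 at day 7, with medians of 1.18 (1.86 corrected) and -0.34, and with day 1 medians of 0.63, 0.69 and 0.42 in the other lines. NDRG1 stood at 26.7, 476 and 122 TPM, VEGFA at 52.4, 179 and 53.3, EGLN3, a prolyl hydroxylase of the hypoxia factor, at 18.2, 91.2 and 7.59, and LOX at 2.21, 12.1 and 1.12.

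Genes of the ATF4 and amino acid response were likewise highest at day 1. Of 13 members 8 were past 2-fold higher at day 1 (9 corrected) and 1, SLC7A11, past 2-fold lower (0 corrected). At day 7 only ATF3 was past 2-fold higher and 2 members were past it lower. The medians were 1.27 (1.38 corrected) and -0.65. At day 1 the medians of the other lines were 0.07, -1.32 and 0.10, and in NCI-H2228 7 of the 13 were past 2-fold lower. DDIT4, an inhibitor of mTORC1, stood at 73.6, 526 and 79.7 TPM, ASNS, asparagine synthetase, at 38.9, 89.9 and 19.7, and CHAC1 at 7.25, 31.0 and 13.9. Of 16 genes of the unfolded protein response 8 were past 2-fold higher at day 1 (6 corrected), among them HERPUD1 at 48.3, 229 and 145 TPM, and 2 at day 7. The day 1 median was 1.00 (0.84 corrected) beside 0.09, 1.08 and 0.20 in the other lines, and NCI-H2228 also had 8 of 16 past 2-fold higher. GDF15, a stress-induced cytokine, stayed high, at 15.4, 501 and 370 TPM.

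Other genes that led at day 1 kept or extended their level. TREM1, a myeloid receptor, was listed at 0 attached and stood at 13.4 and 26.3 TPM, at least 120-fold higher at day 1. MUC21, an epithelial mucin, stood at 0.208, 17.2 and 55.2 TPM, S100P, a calcium-binding protein, at 2.34, 96.3 and 107, S100A9, a calprotectin subunit, at 0.379, 29.8 and 47.6, and METTL27 at 0.109, 11.7 and 10.1. The corrected day 1 log2 differences of these 4 genes lay between 5.32 and 6.45, and that of IGFBP3 was 5.43. IGFBP3, which binds insulin-like growth factors, went from 7.75 to 306 and 401 TPM. In the other lines IGFBP3 lay between 163 and 783 TPM in every library, so NCI-H2009 was below all of them only when attached.

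Many of the lowest day 1 values relative to attached belonged to long transcripts. CENPE, a mitotic kinesin of 8742 bases, stood at 13.0, 0.101 and 3.26 TPM, a day 1 log2 difference of -5.96, or -3.87 corrected. RIF1, a protein of DNA repair with 15003 bases, stood at 39.9 TPM attached and 1.52 at day 1, -5.56 or -3.75 corrected, and SMC4, a condensin subunit, at 128, 0.670 and 115 TPM, -5.73 or -4.41 corrected. CCDC88A, KIF20B, ATAD5 and KIF15 ran the same way, with corrected values between -3.09 and -4.03. COQ3, an enzyme of ubiquinone synthesis, lies in the shortest class with 1325 bases, and FJX1 has 2406 bases. Both were as low after correction, at -5.26 and -5.35. COQ3 stood at 22.3, 0.369 and 6.58 TPM. Whether the low values of the long genes belong to the cells or to this library was not tested.

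Between day 1 and day 7 the largest higher values were SLC6A14, an amino acid transporter, at 0.176, 0.008 and 24.1 TPM, CYP2S1, a cytochrome P450, at 0.799, 0 and 16.1, SPEF2, a sperm and cilium protein, at 2.28, 0 and 11.6, and FOXJ1 and SAA1. CYP2S1 was at least 328-fold and SPEF2 at least 122-fold higher at day 7 than at day 1. The largest lower values were GJA1 and FLNC, TMEM45A at 5.19, 27.5 and 1.94 TPM, ARTN, a neurotrophic ligand, at 16.2, 77.2 and 5.22, and AC138811.2, a clone-named gene at 6.49, 24.7 and 0.483 whose reads may belong to an overlapping gene. TMEM45A, ARTN and AC138811.2 peaked at day 1.

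The order of the 3 states was spread over all 6 possibilities. In 12215 genes with a length and GC value, 6775 spanned at least 2-fold between their lowest and highest library. As measured, 1078 of them (15.9%) were higher at each step from attached through day 1 to day 7 and 780 (11.5%) lower at each step. Day 1 was the highest state in 2226 and the lowest in 2691. After correction 6127 genes spanned 2-fold, of which 1240 (20.2%) were higher and 736 (12%) lower at each step, and day 1 was highest in 2234 and lowest in 1917. So the surplus of genes lowest at day 1 was present as measured and absent after correction.

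**Figure D5:**
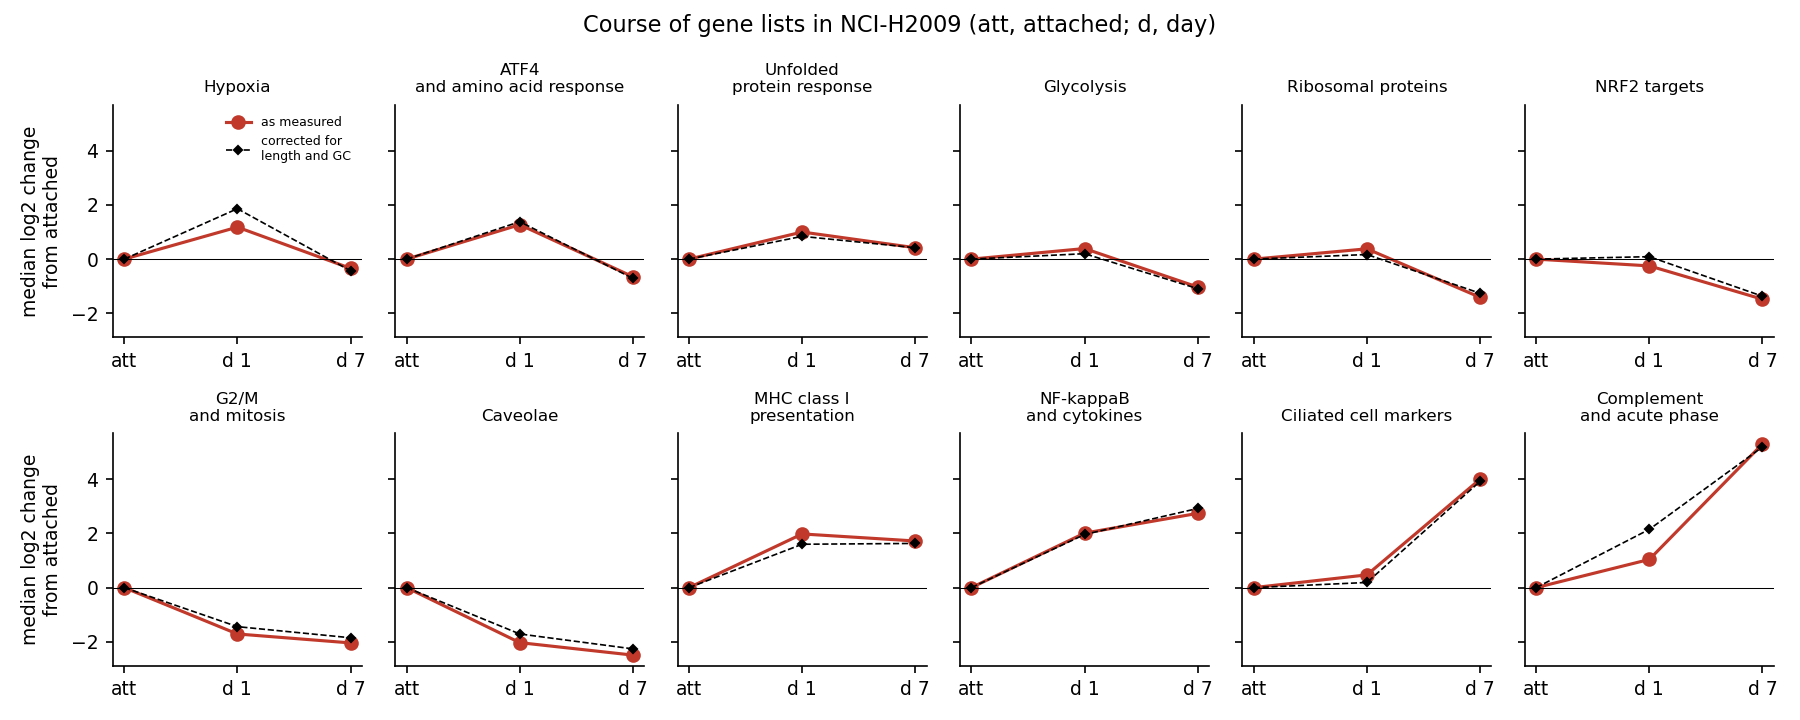
Median log2 change from attached (y axis) of 12 gene lists along the 3 NCI-H2009 libraries (x axis), as measured (red) and after the length and GC correction (black). Hypoxia and ATF4 genes are highest at day 1 (1.18 and 1.27), ribosomal proteins and glycolysis genes are low only at day 7 (-1.41 and -1.03), and ciliated markers are high only then (4.0).

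The steps of NCI-H2009 were shared in part. At day 7, 25.9% of its genes past 2-fold higher were so in LC-2/ad as well, where 5.41% of all genes were, 21.5% in HCC4006 (4.62% of all genes) and 11% in NCI-H2228 (3.58%). Seen from the other lines, 67.7%, 43.3% and 66.3% of their genes past 2-fold higher were past it in NCI-H2009. Of the genes past 2-fold lower, 17.9%, 24.4% and 16.1% were so in the other lines, against 3.75%, 6.88% and 3.73% of all genes. Pearson's r of the day 7 changes over 10663 genes was 0.61 with LC-2/ad, 0.51 with HCC4006 and 0.30 with NCI-H2228, across genes and not independent replicates.

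Of 1391 genes past 2-fold higher at day 7 and measured in all 4 lines, 23 (1.65%) passed the fold in all 3 others, where 0.253% of all genes did, and of 1201 past it lower 52 (4.33%) did, against 0.563%. The genes named here had to be measured in NCI-H2009 only. The largest rises in NCI-H2009 past 2-fold in all 4 lines were PIGR, CEACAM5, PARM1, BMP3 and CFB. PARM1 in HCC4006 and BMP3 in NCI-H2228 and HCC4006 had a mean below 1 TPM, so both are outside the 23. PARM1, a mucin-like membrane protein, stood at 0.051 and 15.6 TPM attached and at day 7, and BMP3 at 0.095 and 20.7 TPM. BMP3 in NCI-H2228 rests on 5 counts at day 7 against 0. By the same rule the largest falls were CGB5, CAV1, TGFB2, LGALS1 and DKK3, a secreted Wnt modulator at 11.7, 5.35 and 1.03 TPM. CGB5 in HCC4006 had a mean below 1 TPM, so it is outside the 52. TGFB2, the growth factor, stood at 11.1, 0.555 and 0.374 TPM.

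How much of the day 7 change was matched elsewhere turned with the threshold. At 2-fold, of the genes past 2-fold higher, 841 (60.5%) passed the fold in none of the other lines, where 90.8% of all genes did not, and of those past it lower 765 (63.7%), against 89.9%. At 1.5-fold the shares in none were 42.2% and 49.1%, against 74.8% and 75.1% of all genes. Values within 0.5 of 0 in each other line were found for 203 (14.6%) and 252 (21.0%), against 44.5% of all genes. At day 1, 39.0% of the genes past 2-fold higher (32.8% corrected) and 22.2% of those past it lower (30.6% corrected) passed the fold in at least 1 other line, where 11.2% and 9.66% of all genes did.

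In the test across lines, no gene passed for the change shared by the other 3 lines, 0 of 17395 (0%) in each of the 3 comparisons by edgeR's quasi-likelihood test, while 2773, 2089 and 1174 had an unadjusted p under 0.05 for day 1, day 7 and day 7 against day 1. DESeq2 called 1009, 645 and 91 and limma 0 in each. For the difference between NCI-H2009 and the others at day 7, 0 of 17395 passed in edgeR (0%), 1977 had an unadjusted p under 0.05, DESeq2 called 405 and limma on TPM 72. The p-values rest on the spread between lines with 1 library per state and 4 residual degrees of freedom, and they take NCI-H2009, a single library per state, to vary like the others. In simulated data of this design 2% of 50 genes changed 4-fold in the NCI-H2009 day 7 library were called, and 74% of 50 changed 32-fold.

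The smallest p-values for a day 7 difference among genes higher in NCI-H2009 belonged to ASS1, OAS1, SLFN5, LIPH and CLDN1. None was past the threshold, and only protein-coding genes with at least 10 TPM in an NCI-H2009 library were ranked here. ASS1, the arginine synthesis enzyme argininosuccinate synthase, went from 1.73 to 25.8 and 35.8 TPM, and its change exceeded that of the others by 3.60 ± 0.41 (SE) on the log2 scale (edgeR, adjusted p = 0.162). In the other 9 libraries ASS1 lay between 35.5 and 213 TPM. For OAS1 the difference was 3.57 ± 0.43 and for CLDN1, a tight junction claudin at 0.062, 0.124 and 13.5 TPM, 7.52 ± 1.01, with the same adjusted p. SLFN5 and LIPH differed by 1.84 ± 0.25 and 2.09 ± 0.28. Among genes lower in NCI-H2009, TGFB2 differed by -3.08 ± 0.41, FJX1 by -2.98 ± 0.41 and IER3, an early stress response gene at 51.6, 118 and 15.1 TPM, by -2.01 ± 0.32, with adjusted p = 0.162, and POLE4 and AK4 by -1.58 ± 0.27 and -2.07 ± 0.38, with adjusted p = 0.243.

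At day 1 the change in NCI-H2009 differed from the others for 653 genes in edgeR, 101 (0.581%) higher and 552 (3.17%) lower, and between day 7 and day 1 for 666, 566 (3.25%) higher and 100 (0.575%) lower. With length and GC as offsets the counts were 110 and 150. Without LC-2/ad they were 0 and 0, and without HCC4006 again 0 and 0; without NCI-H2228 they were 786 and 679. Genes higher at day 1 with offsets as well included IGFBP3, ADM and METTL27. IGFBP3 differed by 5.04 ± 0.77 (adjusted p = 0.0157), ADM by 6.33 ± 0.94 (adjusted p = 0.0138) and METTL27 by 6.34 ± 0.80 (adjusted p = 0.00801). In attached cells ADM was at 0.285 TPM in NCI-H2009 and at 13.0 to 140 in the others.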

How the data were processed

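RNA of 4 lung adenocarcinoma lines in 3 states was sequenced from SMART-Seq v4 PLUS libraries, per the labels' protocols. The build was GRCh38, per the submitters' processing notes. For the aligner, the counting tool and strand, the methods were not given in the sources used here. The table the authors deposited gives TPM and, per the file headers, an estimated count per gene and library. The estimated counts of the deposited table add up to between 31134420 and 41882024 per library.

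Counts were rounded and scaled with TMM factors in edgeR 4.0.16 (R 4.3.3). Within a line, states were compared as log2 CPM (prior count 2), for protein-coding genes with a mean of at least 1 TPM in that line. No test applies to them, and 2-fold is the threshold used. Across lines, 17395 genes kept by filterByExpr were tested with robust quasi-likelihood fits with line as a block, day 1 and day 7 terms and their interactions with NCI-H2009, adjusted by Benjamini-Hochberg at 0.05. The SE restates the test. DESeq2 1.42.0 and limma 3.58.1 (on log2(TPM + 1)) were alternatives. The length and GC smooth used mgcv 1.9.3 and GENCODE transcripts. The test was tested on simulated counts.

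Members, lists, the correction and the rules were chosen with earlier results of these data known. Named genes are the 10 largest differences of each direction against attached with at least 10 TPM in the higher library (5 for day 7 against day 1), the 5 largest differences from the other lines in each direction past the threshold or else those of smallest p, the 5 largest changes shared by all 4 lines, and the list members with at least 5 TPM that changed most at day 7. Other list members named beside them were chosen after their values were seen. Differences from the other lines were ranked among protein-coding genes measured in NCI-H2009 with at least 10 TPM in a library of that line. Alternatives added after seeing the data were the length and GC smooth and leaving out the NCI-H2009 day 1 library. Libraries without molecular identifiers give intervals for counting error only. Nothing says that libraries of different lines or states are more than single cultures, so p-values measure the spread between these libraries. Some members of the lists are counted in them but not reported here by name.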

Additional observations from a re-analysis of the deposited data

Results flagged for a closer look

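Flagged here are 10 genes whose day 1 change in NCI-H2009 differed from that of the other 3 lines by the interaction test of edgeR. They are the 5 largest differences of each direction among passing protein-coding genes with at least 10 TPM in an NCI-H2009 library. The change was higher in NCI-H2009 by 7.97 on the log2 scale for VTCN1, by 6.34 for METTL27, by 6.331 for ADM, by 5.041 for IGFBP3 and by 4.886 for PKDCC, a secreted kinase that stood at 0.559, 15.6 and 4.26 TPM in the attached, day 1 and day 7 libraries. It was lower, at -9.365, for SPEF2, at -5.549 for RIF1, at -4.919 for APC, at -4.81 for GOLGB1 and at -4.739 for LRRCC1. SPEF2 was listed at 0 at day 1, so its fitted value depends on the prior count and is no bound, and VTCN1 rests on 1 count in the attached library. APC, the beta-catenin destruction scaffold, GOLGB1, a giant Golgi protein, and LRRCC1, a centrosome protein, have 10704, 11198 and 4493 bases. GOLGB1 stood at 12.3, 0.430 and 44.8 TPM. With length and GC offsets the values of RIF1, APC and GOLGB1 were -3.69, -3.65 and -3.64 and stayed past the threshold, as did METTL27, ADM and IGFBP3, while VTCN1, PKDCC, SPEF2 and LRRCC1 did not. Without LC-2/ad or without HCC4006 none of the 10 passed.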

How the results depend on the processing

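The limit that bears most on these results is the single library per state, beside the length and GC pattern of the day 1 library of NCI-H2009. No list median past 2-fold as measured changed sign under an alternative. Nor did the change of any gene named by its rank among all genes, in the comparison it was named for. Genes named only as members of a list were not recomputed singly. Of 351 list medians recomputed, 22 changed sign, 11 on log2(TPM + 1) and 11 after the length and GC correction, all of them under 0.84 in size as measured. Among them the NRF2 median at day 1 went from -0.25 to 0.09 and the heat shock median between day 1 and day 7 from -0.54 to 0.19 after correction. The correction also turned the day 1 split of genes past 2-fold from 47.4% to 59.1% higher and, in the order of states, day 1 from more often lowest to more often highest. The other 3 lines' own calls, 0 in edgeR, were 1009, 645 and 91 in DESeq2 and 121, 59 and 3 without the filter on low counts, for day 1, day 7 and day 7 against day 1. Calls for the difference of NCI-H2009 were 1615, 405 and 1863 in DESeq2. At day 7 they were 15 without the filter and 72 with limma, and limma gave 1327 for day 7 against day 1. With no replicate block 1 gene each was left at day 1 and day 7 against day 1. Length and GC offsets, chosen after seeing the data, left 110 and 150. Leaving out each other line in turn gave 0 to 786 calls at day 1, 0 to 8 at day 7 and 0 to 679 for day 7 against day 1 for the difference, and 0 to 3 at day 7 for the other lines themselves. Without the NCI-H2009 day 1 library, also chosen after seeing the data, both day 7 counts were 0. The line block pairs libraries of the same cell line.

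On log2(TPM + 1), 1080 genes were past 2-fold higher at day 1, 804 lower at day 7, and 3834 higher and 492 lower between day 1 and day 7. With a mean of at least 5 TPM, 1233 were higher at day 7 and 1557 for day 7 against day 1. With no filter these were 3238 and 3833. The share of day 1 genes past the fold in at least 1 other line was 54.6% higher and 43.3% lower at 1.5-fold (25.8% and 24.8% of all genes), 21.4% and 8.21% at 4-fold (1.73% and 2.17%), and 32.8% and 30.6% corrected (10.4% and 10.2%). At day 7 it was 57.8% and 50.9% at 1.5-fold (25.2% and 24.9%), 21.7% and 44.6% at 4-fold (1.5% and 2.44%), and 36.8% and 39.7% corrected (9.05% and 9.82%).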

Other observations

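Further gene groups of NCI-H2009 are given for day 7, where 15.7% of all measured genes were past 2-fold higher and 11.9% lower. Of 13 measured genes of fatty acid oxidation and PPAR control 6 were past 2-fold higher, with a median log2 change of 0.89 beside 0.87, 0.18 and 0.07 in the other lines. PPARGC1A was measured only through the day 7 library, and of the other 12 genes 5 were past 2-fold higher. PDK4, which shuts pyruvate out of the mitochondrial cycle, stood at 1.36, 4.47 and 37.5 TPM in the attached, day 1 and day 7 libraries. Of 11 genes of fatty acid synthesis 5 were past 2-fold lower, among them FADS2, a desaturase, at 134.5, 90.7 and 43.9 TPM and SCD at 101.3, 105.9 and 36.8. Of 14 p53 targets 5 were past 2-fold higher, with CDKN1A, the cell cycle inhibitor p21, at 21.4, 79.7 and 128.9 TPM and TP53INP1 at 0.635, 2.25 and 11.2.

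Of 13 measured genes of ERK pathway output 5 were past 2-fold higher and 1, CCND1, which codes for cyclin D1, past 2-fold lower, at 157.5, 16.9 and 48.3 TPM. SPRY1, a feedback inhibitor of the pathway, stood at 1.77, 3.25 and 10.7 TPM and DUSP5, a nuclear ERK phosphatase, at 12.7, 78.6 and 47.4. FOSL1, a partner in AP-1, stood at 253.2, 72.0 and 47.8 TPM and MYC at 111.9, 84.5 and 39.9. Of 15 extracellular matrix genes 6 were past 2-fold lower and 2 higher: LAMB1, a laminin chain, stood at 47.1, 12.1 and 9.92 TPM and FN1, fibronectin, at 24.1, 24.7 and 72.7. Of 12 listed alveolar type 2 markers 5 were measured, and 4 of these were past 2-fold higher, among them CTSH at 15.4, 34.9 and 65.8 TPM. SFTPC, SFTPD and PGC were listed at 0 in the 3 libraries. The median of the 5 was 2.7, beside 1.78, -0.29 and 0.91 in the other lines.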
